A study of Homo sapiens with 6 samples.

Results

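Translation initiation and elongation factors were followed in RNA that came down with Ago2 from HEK293 cells given a microRNA-219 mimic or a negative control mimic. They were taken as the protein-coding genes, outside chromosome Y, whose symbols start with EIF followed by 1 to 6, or with EEF followed by 1 or 2, and hold only letters and digits after that. The eIF2 kinases (EIF2AK), the Argonaute genes under their older EIF2C names and EIF4ENIF1 were left out. The rule took 59 of the 48162 rows of the table, with 58 gene names, because EIF3L has 2 rows. Of these, 54 had enough counts to be tested, among 16233 genes tested in all.

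HEK293 is an established cell line from human embryonic kidney. Both groups received Flag-tagged Ago2, the protein that carries small RNAs in the silencing complex, and the complex was pulled down with anti-Flag agarose before the RNA was sequenced. The M219 libraries came from cells that also received the mir-219 mimic, and the NC libraries from cells that also received the negative control mimic. Each group has 3 libraries, 1 each labelled 22 August, 5 September and 18 September, and the 3 values given for a group follow that order of dates. The labels do not say whether the dates were separate cultures, so the p-values reflect variation among these samples that could be technical. Ago2 was supplied by transfection in every library, untransfected cells and input RNA were not analysed here, and a level therefore mixes the abundance of a transcript with its recovery with Ago2.

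Initiation begins when eIF2, bound to GTP, brings the initiator tRNA to the small ribosomal subunit, with eIF1, eIF1A, eIF3 and eIF5 on the same particle. The eIF4F factors bind the cap, unwind the leader and recruit this particle to the messenger, and eIF5B then joins the large subunit. In elongation eEF1A delivers aminoacyl-tRNAs, the eEF1B subunits recharge it with GTP, and eEF2 moves the ribosome along. Many of the messengers for elongation factors, and for some initiation factors, start with a C followed by a run of pyrimidines, the 5′ terminal oligopyrimidine tract, through which mTOR and the RNA-binding protein LARP1 control their translation.

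The mature microRNAs of the 2 genes for miR-219a are printed because the labels do not say which strand the mimic carries. RefSeq (GRCh38.p14) places the 5p and 3p products of MIR219A1 at chr6:33207855-33207875 and chr6:33207896-33207917 on the plus strand, and those of MIR219A2 at chr9:128392676-128392696 and chr9:128392632-128392653 on the minus strand. Capitals mark the seed, bases 2 to 8. The 5p product of the 2 genes is the same, and each of the 3 products has a seed of its own.
hsa-miR-219a-5p: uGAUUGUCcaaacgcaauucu
hsa-miR-219a-1-3p: aGAGUUGAgucuggacgucccg
hsa-miR-219a-2-3p: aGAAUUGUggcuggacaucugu

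The starts of 8 factor genes show the oligopyrimidine feature, since the factors can be split by it without using their counts. Each window holds 15 bases before the annotated start and 15 from it on, from the RefSeq promoter table (GRCh38.p14). Capitals mark the unbroken run of C and T that begins with a C at the annotated start, as far as the window shows it. The run of EEF1B2 is 16 bases long and goes past the end of its window. EEF1A1, EEF1B2, EEF2, EIF2A, EIF3K and EIF4B have such a run of at least 5 bases, and EIF2B2 and EIF4G2 do not.
EEF1A1: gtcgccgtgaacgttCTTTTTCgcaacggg
EEF1B2: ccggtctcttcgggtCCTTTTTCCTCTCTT
EEF2: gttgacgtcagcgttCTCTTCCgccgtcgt
EIF2A: tcacccgagcggtttCTCTTTCCgggacaa
EIF3K: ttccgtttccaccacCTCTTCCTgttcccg
EIF4B: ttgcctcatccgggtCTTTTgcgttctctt
EIF2B2: gacctcgcccgccccggaagtgcaaactgt
EIF4G2: gaggttgtcggaagcacttccctaacttgc
In that build the windows lie at chr6:73521018-73521047 on the minus strand for EEF1A1 and at chr2:206159880-206159909 on the plus strand for EEF1B2. The EEF2 window is chr19:3985449-3985478 on the minus strand, that of EIF2A is chr3:150546772-150546801 on the plus strand, and that of EIF3K is chr19:38619173-38619202 on the plus strand. EIF4B is shown at chr12:53006441-53006470 on the plus strand, EIF2B2 at chr14:75002906-75002935 on the plus strand and EIF4G2 at chr11:10807982-10808011 on the minus strand.

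The libraries held 20379336 to 31490366 counts with M219 and 20233819 to 34408699 with NC, so counting error was small for all but the scarcest factors. The transfected AGO2 took 13.5, 16.7 and 12.6% of counts with M219 and 11.7, 18.0 and 10.6% with NC, and the mitochondrially encoded genes took 13.3, 6.25 and 7.27% with M219 and 8.39, 5.66 and 6.48% with NC. A list of 7 genes for an embryonic kidney line with neuronal features held neurofilament and keratin genes among others. All 7 were present in every library. They summed to 928 to 1228 CPM (counts scaled to library size) with M219 and 904 to 1059 CPM with NC. The keratin gene KRT8 alone gave 545 to 718 CPM with M219 and 513 to 642 CPM with NC. A list of blood and plasma cell markers, of which 9 of 10 are in the table, summed to 0.0691, 5.78 and 6.67 CPM with M219 and 17.3, 699.6 and 14.3 CPM with NC, where HBB alone gave 689.6 CPM in the NC library of 5 September and IGKC was at 0 in all 6. The 5 intestinal markers summed to 0.38, 5.57 and 12.5 CPM with M219 and 21.0, 1.09 and 14.2 CPM with NC. Both liver markers summed to at most 1.34 CPM with M219 and 0.794 CPM with NC, and VWF, the endothelial marker in the table, reached 0.705 CPM with M219 and 0.769 CPM with NC. The part of these transcripts in the values below was not tested.

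The factors together took 2.05, 1.91 and 2.15% of all counts with M219 and 2.35, 2.05 and 2.42% with NC. On each date the share was smaller with M219. EEF1A1 and EEF2 together took 1.19, 0.966 and 1.21% of counts with M219 and 1.35, 1.14 and 1.42% with NC. The share describes the sum, in which these 2 genes weigh most, and not each factor. EEF1A1 alone accounted for 0.8, 0.67 and 0.885% of counts with M219 and 1.02, 0.766 and 1.06% with NC. Per length, as CPM per kilobase of the gene length in the table, EEF1A1 had the highest level, 1951 ± 329, followed by EEF2 at 1098 ± 151, EEF1B2 at 381 ± 68.3, EIF5A at 317 ± 41.5 and EIF1 at 226 ± 31.1 CPM per kilobase (mean ± SD over all 6 libraries). The ranges of EEF1A1 and EEF2 overlapped neither each other nor that of EEF1B2, while those of EEF1B2 and EIF5A overlapped, and so did those of EIF5A and EIF1. The tested factors had a median of 34.6 CPM per kilobase and reached down to 0.428 CPM per kilobase for EIF5AL1.

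**Figure D1:**
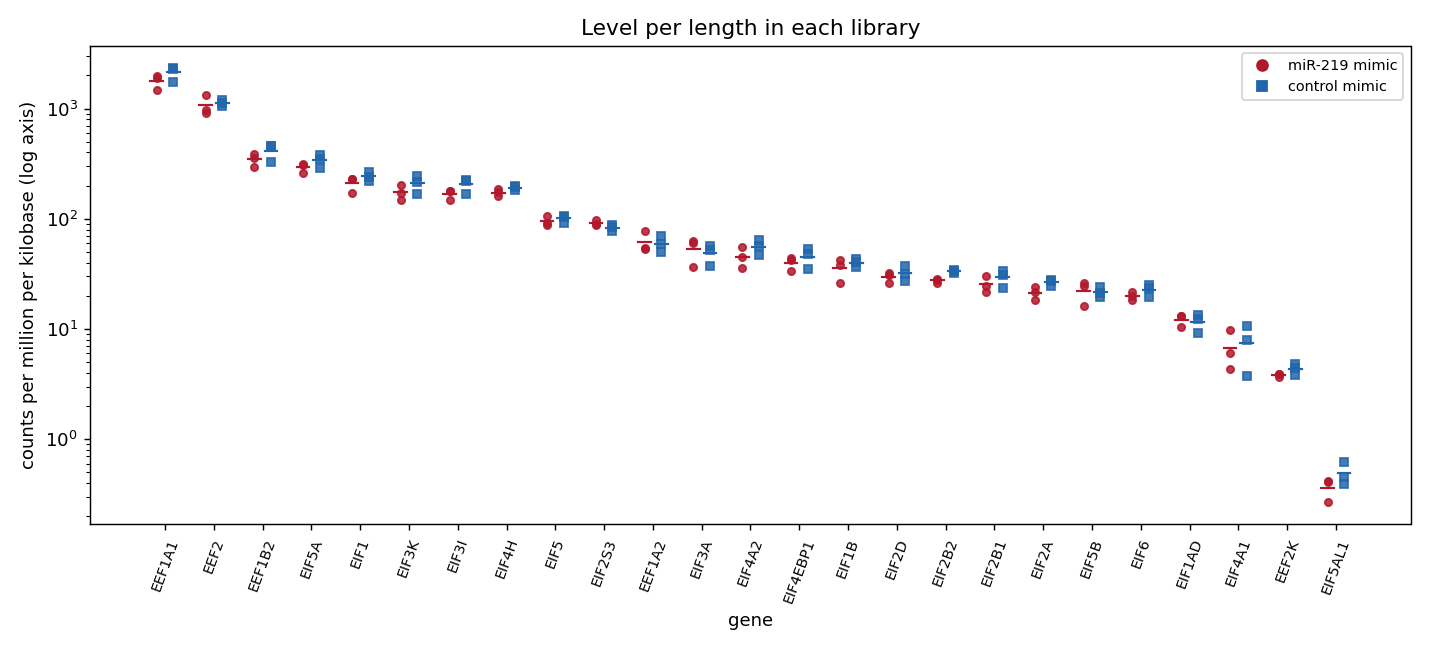
Level per length of 25 translation factors in each library, in CPM per kilobase on a log axis, with M219 libraries as circles, NC libraries as squares and the mean of each group as a bar; genes run from the highest to the lowest mean. EEF1A1 and EEF2 lie above all the others, and the 2 groups lie close together for every gene against a range that spans from 0.428 to 1951 CPM per kilobase.

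The other 5 rows could not be tested. EEF1G, which encodes the gamma subunit of eEF1B, EIF4E1B and the second EIF3L row had 0 counts in all 6 libraries. EIF2S3L had 5 to 9 counts per library and EIF4EBP3 at most 1. The interval of EEF1G lies wholly within that of a protein-coding row named MIR3654 on the same strand, which had 9 to 31 counts, and EIF4EBP3 lies wholly within ANKHD1 on its own strand. Whether the authors' counting dropped reads that fall on overlapping genes is not given in the sources used here, and neither is the strand setting. A 0 or a low count in such a place therefore does not show a low level of the transcript. Rows on the opposite strand also cover other factor intervals, among them 83.3% of EIF2S2 (RALY) and 43.6% of EIF2D (RASSF5). They cover 76.6% of EIF4B, 56.3% of EIF2B2 and 53.3% of EIF2B4, so these levels carry the same limit.

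No translation factor differed between M219 and NC past an adjusted p of 0.05 in the edgeR fit, and neither did any gene (0.0% of 16233). At an unadjusted p under 0.05 edgeR gave 1 factor, EIF2A, against 3.01% of all genes. Of all genes 1.26% had such a p with a lower level. DESeq2 and limma-voom each gave 1 factor as well (433 and 479 of all genes). In edgeR the number moved with single libraries, and so did that of all genes. The factors numbered 8 without the NC library of 5 September (1249 of all genes). They numbered 1 without the M219 library of 5 September or of 18 September (428 and 696 of all genes). Without the M219 or the NC library of 22 August there were none (404 and 302 of all genes). Without the NC library of 18 September there were none either (387 of all genes). Most factors nevertheless lay on the lower side: 39 of 54 had a log2 fold change below 0, 72.2% against 49.7% of all genes tested. Their median was −0.14, a level 0.905 times that with NC, against a median of 0.002 over all genes. Single factors ran from −0.43 for EIF5AL1 to 0.21 for EIF4G2. The median standard error was 0.16, and for 53 of 54 factors the 95% interval lay within a change of 2-fold in either direction.

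The tilt was uneven over the dates. On 22 August 40 of 54 factors had a lower level with M219, against 48.0% of all genes, with a median log2 ratio of −0.23. On 5 September 28 of 54 did, against 49.9% of all genes, with a median of −0.015. On 18 September 44 of 54 did, against 52.5% of all genes, with a median of −0.15. The medians over all genes were 0.022, 0.001 and −0.013 on those dates. Without both libraries of 22 August the fitted median of the factors was −0.063, with 36 of 54 below 0, and without both of 5 September it was −0.20. All 3 dates had the lower level with M219 for 20 factors, against 14.4% of all genes, and the higher level for 4, EIF2S3, EIF4B, EIF4G2 and EIF4G3, against 15.6% of all genes. The M219 and NC libraries did not overlap, with M219 below, for EIF2A, EIF2B2, EIF2B5 and EIF4A3, 4 of 54 against 3.84% of all genes, and with M219 above for EIF2S3 alone, against 4.22% of all genes. Nothing is read from counts as small as these 2.

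With the date as a block, edgeR gave 6 factors an unadjusted p under 0.05, against 5.75% of all genes, and all 6 had lower levels with M219, against 2.73% of all genes lower at that p. In order of rising p they were EIF3I, EIF2B2, EIF2A, EEF1A1, EIF3K and EIF3H. None of them passed after adjustment over all genes in edgeR, where the smallest adjusted p of a factor was 0.824.

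**Figure D2:**
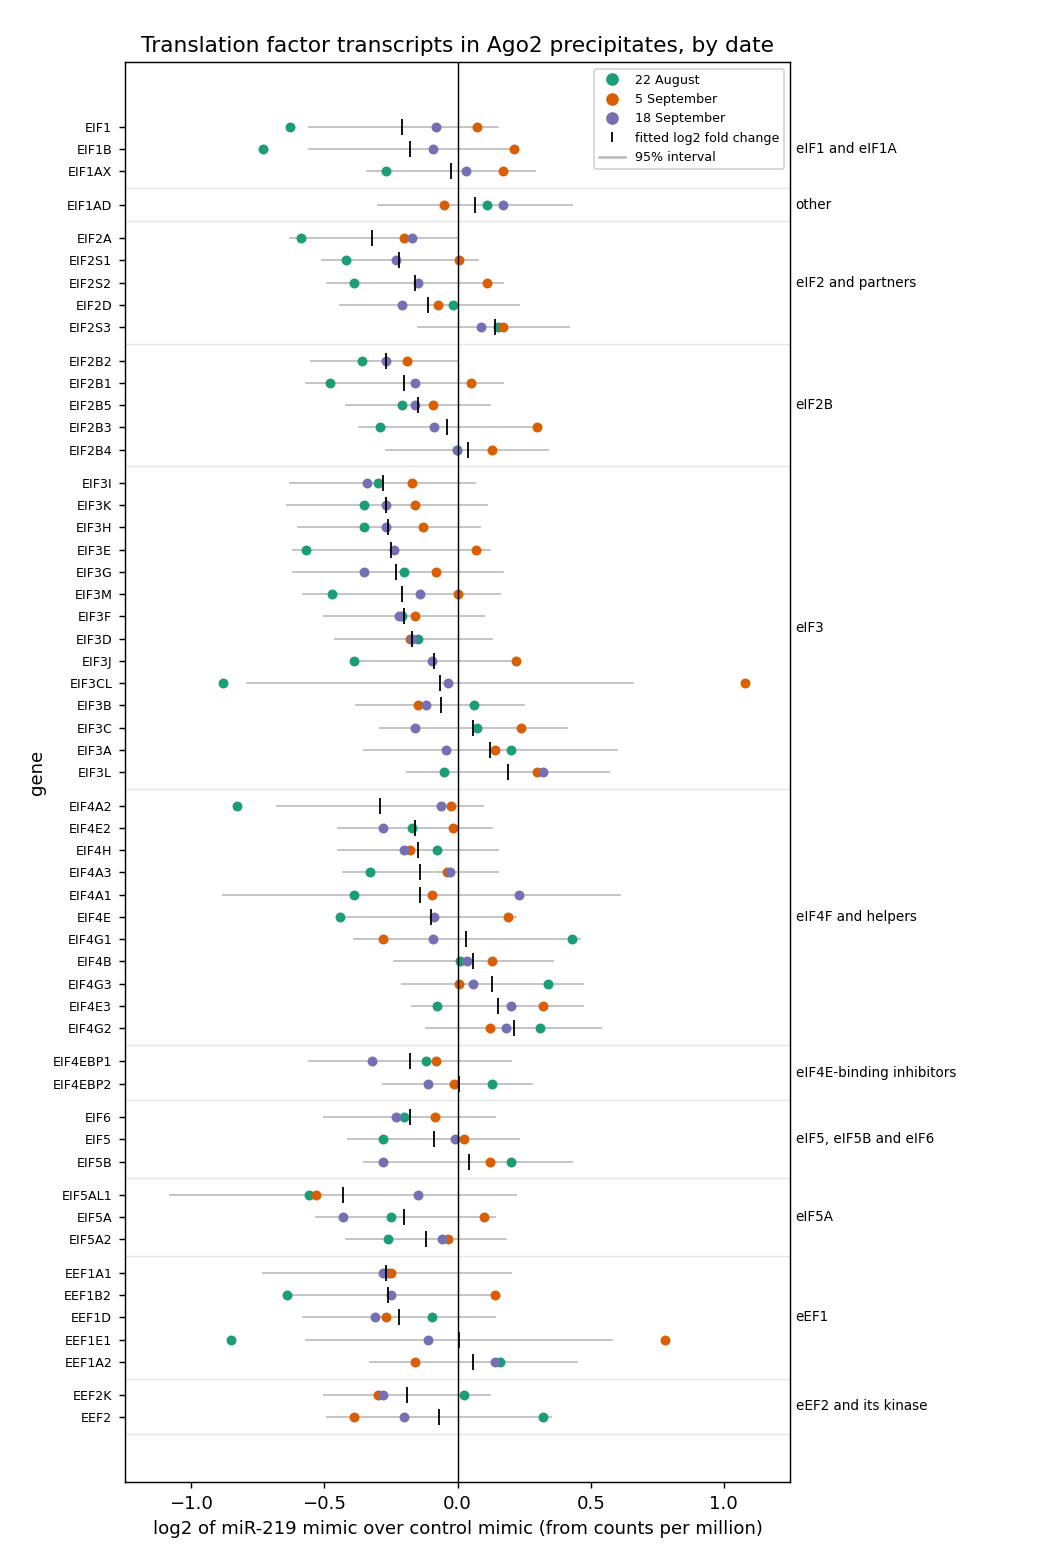
Log2 ratio of M219 over NC for each of the 54 tested translation factors on 22 August, 5 September and 18 September (circles), with the fitted log2 fold change (tick) and its 95% interval (bar), by complex. Of the ticks 39 lie left of 0, all intervals but that of EIF2A cross it, and the circles of 5 September have a median of −0.015, against medians of −0.23 on 22 August and −0.15 on 18 September.

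The scanning factors eIF1 and eIF1A keep the small subunit open until a start codon is found. EIF1 had 399, 541 and 531 CPM with M219 and 619, 515 and 562 CPM with NC. The groups overlapped, and only the M219 library of 22 August stood clear of the NC libraries. Its log2 fold change was −0.21 (SE 0.16, adjusted p = 0.999 in edgeR). Its paralogue EIF1B had 26.2, 42.7 and 38.7 CPM with M219 and 43.5, 36.8 and 41.3 CPM with NC, again with the low M219 library on 22 August. EIF1AX, the X-linked eIF1A gene, had a log2 fold change of −0.025. The median log2 ratio of the 3 genes was −0.63 on 22 August, 0.17 on 5 September and −0.083 on 18 September. The annotated interval of EIF1 lies within that of JUP on the opposite strand.

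Of the eIF2 genes, which form the GTPase that carries the initiator tRNA, EIF2S3, the gamma subunit with the nucleotide site, lay on the other side of 0 from the other 2 subunits. EIF2S3 (ENSG00000130741, chrX:24072833-24096088 in hg19) had 277, 252 and 254 CPM with M219 and 249, 223 and 239 CPM with NC. Every M219 library lay above every NC library, with a fold of 1.10 (95% interval 0.902 to 1.34, adjusted p = 0.999 in edgeR). The alpha subunit gene EIF2S1, whose product the eIF2 kinases phosphorylate, had 167, 183 and 166 CPM with M219 and 223, 183 and 195 CPM with NC, and the beta subunit gene EIF2S2 189, 188 and 193 CPM with M219 and 248, 174 and 214 CPM with NC. EIF2S1 had equal levels with M219 and NC on 5 September, and EIF2S2 stood higher with M219 on that date only.

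EIF2A encodes a separate factor that can bring initiator tRNA to the ribosome in place of eIF2. It is at chr3:150264465-150302029 in hg19 (ENSG00000144895) and had 40.3, 47.2 and 53.5 CPM with M219 and 60.7, 54.4 and 60.4 CPM with NC. All M219 libraries lay below all NC libraries, and the gap was largest on 22 August. The log2 fold change was −0.32 (SE 0.14), a fold of 0.803 with a 95% interval of 0.647 to 0.997, and the adjusted p was 0.999 in edgeR. This was the only factor whose interval lay below 0. Its annotated interval lies within that of SERP1 on the opposite strand, which had 1954 to 2687 counts with M219 and 1862 to 2812 with NC. EIF2D, a factor that binds tRNA without GTP and also acts in recycling, had 65.0, 54.8 and 67.7 CPM with M219 and 65.8, 57.7 and 78.5 CPM with NC. Its groups overlapped (log2 fold change −0.11, SE 0.15).

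The 5 subunits of eIF2B, the exchange factor that reloads eIF2 with GTP, lay at a median of −0.15 in log2 fold change, with 4 of 5 below 0. That median was −0.096 without the M219 library of 22 August and −0.085 without the NC library of 18 September. EIF2B2, a regulatory subunit (ENSG00000119718, chr14:75469614-75476292 in hg19), had 40.1, 43.2 and 43.7 CPM with M219 and 51.4, 49.4 and 52.7 CPM with NC. Every M219 library lay below every NC library, with a fold of 0.828 (95% interval 0.685 to 1.0, adjusted p = 0.999 in edgeR). EIF2B1, another regulatory subunit, had 54.3, 60.9 and 75.3 CPM with M219 and 75.9, 58.8 and 84.1 CPM with NC, and its groups overlapped. EIF2B5, the catalytic epsilon subunit, had 48.8, 53.7 and 50.1 CPM with M219 and 56.4, 57.3 and 55.8 CPM with NC. These did not overlap either, at a log2 fold change of −0.15. The hg19 interval of EIF2B5 spans many other genes, among them the whole of EIF4G1, so its count may be incomplete.

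eIF3 is the large scaffold that holds the small subunit and the messenger together. The median log2 fold change of its 14 tested genes was −0.18, with 11 below 0, and none passed in edgeR. By date the median log2 ratios were −0.26, −0.04 and −0.16, with 7 of 14 below 0 on 5 September. Without the NC library of 5 September the fitted median was −0.31, and without that of 18 September it was −0.11. EIF3K, one of the small subunits, had 227, 198 and 267 CPM with M219 and 289, 221 and 322 CPM with NC, and EIF3I, which sits with EIF3B and EIF3G at the edge of the complex, had 262, 217 and 261 CPM with M219 and 324, 245 and 331 CPM with NC. In both the M219 library was below the NC library of its date, while the groups overlapped, the NC library of 5 September lying within the M219 range. The log2 fold changes were −0.27 (SE 0.17) for EIF3K and −0.28 (SE 0.16) for EIF3I. The subunit genes EIF3D, EIF3F, EIF3G and EIF3H also had the lower level with M219 on each date, with log2 fold changes from −0.26 to −0.17. EIF3E, at −0.25, did so on 22 August and 18 September only.

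EIF3A, the largest subunit and the base of the scaffold, did not share that pattern. It had 329, 346 and 198 CPM with M219 and 285, 313 and 204 CPM with NC. The libraries of 18 September were low in both groups, and the log2 fold change was 0.12 (SE 0.22). EIF3L had 6.7, 8.04 and 7.78 CPM with M219 and 6.95, 6.51 and 6.22 CPM with NC, but its interval is annotated a second time under another ID, so reads may be missing. EIF3C and EIF3CL are near-identical copies and their counts are uncertain. EIF3CL, at 85 to 195 counts per library, had log2 ratios of −0.88, 1.08 and −0.04 by date, while EIF3C had 0.07, 0.24 and −0.16.

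The eIF4F genes and their helpers were split. Of 11 tested, 6 had a log2 fold change below 0 and 5 above, with a median of −0.10. Without the M219 library of 18 September the median was 0.072 and without the NC library of 5 September 0.051, while without the M219 or the NC library of 22 August it was −0.056 or −0.053. The scaffolds EIF4G1, EIF4G2 and EIF4G3 were on the upper side. Each is longer than 5 kilobases, and protein-coding genes of that length had a median of 0.09, with 26.9% below 0. EIF4G2, a relative of eIF4G that does not bind the cap-binding protein eIF4E, acts in cap-independent initiation. It had 847, 729 and 679.9 CPM with M219 and 681, 671 and 602 CPM with NC. The M219 library was higher on each date, but that of 18 September lay below the NC library of 22 August. The fold of 1.15 was the highest of all factors (95% interval 0.919 to 1.45, adjusted p = 0.999 in edgeR). EIF4G3 had 205, 203 and 162 CPM with M219 and 162, 202 and 155 CPM with NC, and EIF4G1, the main scaffold, had 842, 646 and 529 CPM with M219 and 623, 786 and 563 CPM with NC. EIF4G1 stood higher with M219 on 22 August alone, and its log2 fold change of 0.03 was −0.20 without the libraries of that date. EIF4B, which stimulates the helicase, had 367, 366 and 324 CPM with M219 and 365, 334 and 316 CPM with NC, nearly level in the 2 groups.

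Among the helicases, EIF4A2 had 192, 294 and 240.3 CPM with M219 and 341, 299 and 251 CPM with NC. Its log2 fold change of −0.29 (SE 0.18) came mostly from 22 August, with a log2 ratio of −0.83 on that date and −0.03 and −0.06 on the others, and was −0.04 without that date. EIF4A1 had only 10.6, 17.3 and 7.68 CPM with M219 and 13.9, 18.6 and 6.55 CPM with NC. Its hg19 interval (chr17:7476024-7482323) is covered to 95.4% by SENP3-EIF4A1 and to 98.1% by another noncoding row on the same strand, so its level is uncertain. EIF4A3, a helicase of this family that works in the exon junction complex, had 186, 192 and 196 CPM with M219 and 234, 197 and 199.9 CPM with NC, which did not overlap (log2 fold change −0.14).

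EIF4H, another helper of the helicase, had the highest level per length of this group, with 495, 465 and 430.5 CPM with M219 and 522, 527 and 494 CPM with NC. Only the M219 library of 22 August reached into the NC range, and the log2 fold change was −0.15 (SE 0.14). The cap-binding protein gene EIF4E had 45.8, 63.9 and 58.7 CPM with M219 and 62.4, 56.0 and 62.4 CPM with NC, and the groups overlapped. EIF4EBP1, whose product blocks eIF4E when mTOR is off, had 44.9, 34 and 43.3 CPM with M219 and 48.7, 36 and 53.9 CPM with NC. It stood lower with M219 on each date but overlapped (log2 fold change −0.18, SE 0.17). EIF4EBP2 had near equal means, 206 ± 10.3 CPM with M219 and 205 ± 6.89 CPM with NC (SD, n = 3 each).

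EIF5, the factor that makes eIF2 hydrolyse its GTP, had 524, 628 and 545 CPM with M219 and 637, 618 and 548 CPM with NC. The groups overlapped, and only 22 August showed a gap of over 0.1 in log2 ratio. EIF5B, the GTPase of subunit joining, had 115, 122 and 75.8 CPM with M219 and 100.3, 113 and 91.8 CPM with NC, so that M219 was the higher on 22 August and 5 September and the lower on 18 September. EIF6, which keeps the large subunit from joining too early, had 27.9, 23.5 and 26.0 CPM with M219 and 32.2, 25.0 and 30.4 CPM with NC, and its log2 fold change was −0.18 (SE 0.15).

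EIF5A, the hypusine-bearing factor that helps ribosomes past difficult stretches, had 479, 469 and 393 CPM with M219 and 568, 438 and 529 CPM with NC. The groups overlapped (log2 fold change −0.20, SE 0.16). EIF5AL1 is a near copy of EIF5A on another chromosome, and its 29 to 60 counts per library may be reads of EIF5A. It had 1.59, 1.02 and 1.57 CPM with M219 and 2.38, 1.51 and 1.76 CPM with NC, the lowest log2 fold change of all factors at −0.43 (SE 0.30, adjusted p = 0.999 in edgeR). Only EIF3CL and EIF4A1 had a larger standard error.

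EEF1A1, the main tRNA carrier of elongation (ENSG00000156508, chr6:74225473-74233520 in hg19), had 8699, 6558 and 8349.7 CPM with M219 and 10448, 7791 and 10152 CPM with NC. The M219 library was below the NC library of the same date by nearly the same amount each time, with log2 ratios of −0.26, −0.25 and −0.28, while the dates themselves differed enough for the groups to overlap. The log2 fold change was −0.27 (SE 0.21, adjusted p = 0.999 in edgeR and 0.824 with the date as a block). Pseudogenes of EEF1A1, 38 rows in the table, held 0.551 to 1.24% of the EEF1A1 counts. EEF1A2, the paralogue known from nerve and muscle, had 143, 97.0 and 100.4 CPM with M219 and 128, 108 and 91.4 CPM with NC, with overlapping groups. EEF1B2, an exchange factor for eEF1A, had 324, 394 and 424 CPM with M219 and 504, 357 and 505 CPM with NC, below NC on 22 August and 18 September and above it on 5 September. EEF1D, the delta subunit, had 64.1, 46.3 and 60.4 CPM with M219 and 68.5, 55.7 and 74.7 CPM with NC, lower with M219 on each date (log2 fold change −0.22, SE 0.16). EEF1E1, which belongs to the multi-synthetase complex despite its name, had 5.25, 11.9 and 8.84 CPM with M219 and 9.53, 6.92 and 9.54 CPM with NC, with opposite directions on 22 August and 5 September. Its interval is covered to 99.8% by the row EEF1E1-MUTED on the same strand, so its level is uncertain.

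EEF2, the translocase, had 4205, 2900.5 and 3072 CPM with M219 and 3358, 3795 and 3524 CPM with NC. It was higher with M219 on 22 August and lower on the other 2 dates, so that the log2 fold change of −0.07 (SE 0.19) covers log2 ratios of 0.32, −0.39 and −0.20. EEF2K, the kinase that switches eEF2 off, had 20.6, 20.7 and 19.4 CPM with M219 and 20.2, 25.5 and 23.6 CPM with NC, with the NC library of 22 August inside the M219 range (log2 fold change −0.19, SE 0.14). EIF1AD, a nuclear protein named for a domain like that of eIF1A, had 38.2, 37.4 and 29.9 CPM with M219 and 35.4, 38.7 and 26.6 CPM with NC, with overlapping groups. The tested factors not described so far lay between −0.21 for EIF3M and 0.15 for EIF4E3, with EIF4E2 at −0.16, EIF5A2 at −0.12, EIF3J at −0.09, EIF3B at −0.06, EIF2B3 at −0.04 and EIF2B4 at 0.04 in log2 fold change.

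The promoter table held 44 of the 54 tested factors, and 12 of these start with a C followed by at least 4 bases that are each C or T, read on the gene's strand at the annotated start only. They are EEF1A1, EEF1B2, EEF2, EIF2A, EIF2D, EIF2S3, EIF3D, EIF3F, EIF3K, EIF3M, EIF4A2 and EIF4B. Such a start was found in 4.07% of all 35116 promoters in the table and in 7.22% of the tested protein-coding genes that had one. The median log2 fold change of the 12 factors was −0.20, with 10 below 0, against −0.11 for the 32 without, of which 22 were below 0. The 12 were also shorter, with a median length of 3011 bases against 3669 bases for the 32. The medians by date were −0.24, −0.12 and −0.19 with such a start and −0.25, 0.005 and −0.10 without it. Protein-coding genes had a median of −0.04 with such a start and 0.0 without. A list of factors known by name to carry the tract split them differently. Of its 13 tested rows 8 were below 0 (61.5%), with a median of −0.20 and a median log2 ratio of −0.095 on 22 August, and of the 41 factors outside it 31 were below 0 (75.6%), with a median of −0.14 and of −0.26 on that date. The shares below 0 lay in opposite order under the 2 definitions, which covered different genes. The list members EEF1A2, EEF1D, EIF3A, EIF3E, EIF3H and EIF3L are not in the promoter table. Every other tested member of the list has such a start, so the definitions do not conflict there. EIF2D, EIF3D, EIF3K, EIF3M and EIF4A2 have such a start but are not on the list. A match describes the annotated start and not the start used in these cells, and neither difference between sets of factors was tested.

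Shorter genes had the lower ratios on 22 August and 18 September, among the factors and among protein-coding genes. Across the 54 factors gene length and log2 fold change had a Spearman correlation of 0.34, and across 13805 protein-coding genes 0.36, where genes share the depth of their libraries and are not independent. By date it was 0.36, 0.04 and 0.33 among the factors and 0.44, −0.05 and 0.19 among the protein-coding genes. The median log2 fold change was −0.19 for the 14 factors shorter than 2 kilobases and −0.12 for protein-coding genes of that length. From 2 up to 3 kilobases the medians were −0.15 for 10 factors and −0.06 for protein-coding genes, and from 3 up to 4 kilobases −0.14 for 11 factors and −0.005 for protein-coding genes. From 4 up to 5 kilobases they were 0.007 for 6 factors and 0.03 for protein-coding genes, and from 5 kilobases on −0.09 for 13 factors and 0.09 for protein-coding genes. The median of the factors was below that of protein-coding genes in each of the 5 classes. With the length trend of each library removed, 42 of 54 factors were below 0, with a median of −0.13. No share of all genes is given for that fit, so these 42 have no background. In the main test 12 of 14 factors shorter than 2 kilobases were below 0, against 71.0% of protein-coding genes of that length. From 2 up to 3 kilobases it was 8 of 10 against 64.7%, and from 3 up to 4 kilobases 9 of 11 against 51.2%. From 4 up to 5 kilobases it was 3 of 6 against 41.5%, and from 5 kilobases on 7 of 13 against 26.9%. Whether gene length accounts for the tilt was not tested.

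**Figure D3:**
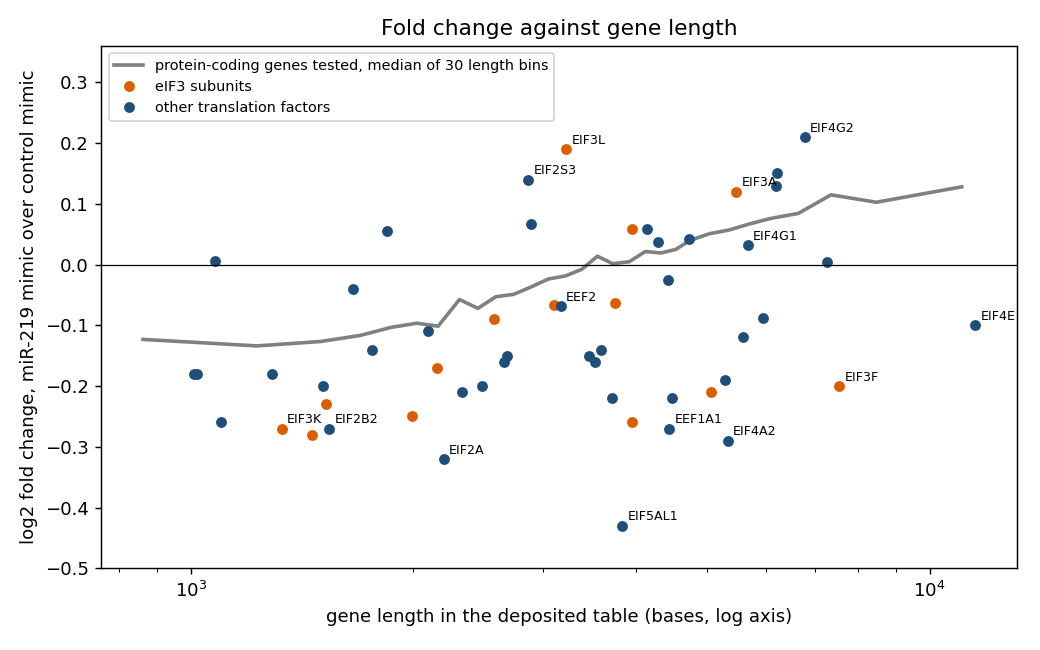
Log2 fold change of M219 over NC against gene length (log axis) for the 54 tested translation factors, with eIF3 subunits marked apart from the others; the line gives the median of protein-coding genes in 30 bins of length. Factors lie below the line at most lengths, with EIF2S3, EIF3L and EIF4G2 among those above it.

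Between the 3 dates, tested in edgeR in 1 fit with the mimic as a further term, no factor passed the threshold, while 0.308% of all genes did. At an unadjusted p under 0.05 there were 12 of 54, against 13.2% of all genes. EIF4A1 had the lowest p (adjusted p = 0.148 in edgeR), with the levels given above, uncertain because other rows overlap it on its strand. Set against the mean of the other dates it was 0.94 on 5 September (SE 0.15) and −1.05 on 18 September (SE 0.17) on the log2 scale. EIF3A was next (adjusted p = 0.23 in edgeR), at −0.66 on 18 September (SE 0.11). DESeq2's likelihood ratio test called both genes, limma-voom called none, and edgeR with no filter on low counts called these and EEF1A1.

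The commonest pattern was a low 5 September. In 14 factors both libraries of that date lay below the other 4, against 9.05% of all genes, and in 1, EIF4A1, above, against 10.4%. The 14 include EEF1A1, EEF1D, EIF4EBP1 and EIF3G, EIF3H, EIF3I and EIF3K. EIF3G had 151, 130.3 and 174 CPM with M219 and 174, 138 and 221 CPM with NC, lowest on 5 September in both groups. EIF3H had 93.8, 80.5 and 101 CPM with M219 and 119.8, 88.3 and 121 CPM with NC, with the same order of dates. On 18 September 7 factors lay below the other 4 libraries in both groups, among them EIF3A, EIF4A1, EIF5B, EIF4G1, EIF4G3 and EIF4B, against 13.5% of all genes, and EIF2D alone lay above, against 13.1%. On 22 August 4 lay above, EEF1A2, EIF3B, EIF3C and EIF2B4, against 6.19%, and none below, against 5.38%. In edgeR the number of factors called between dates moved when a single library was left out, and so did that of all genes. Such a fit keeps 1 library on a date, so nothing is read from these numbers.

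**Figure D4:**
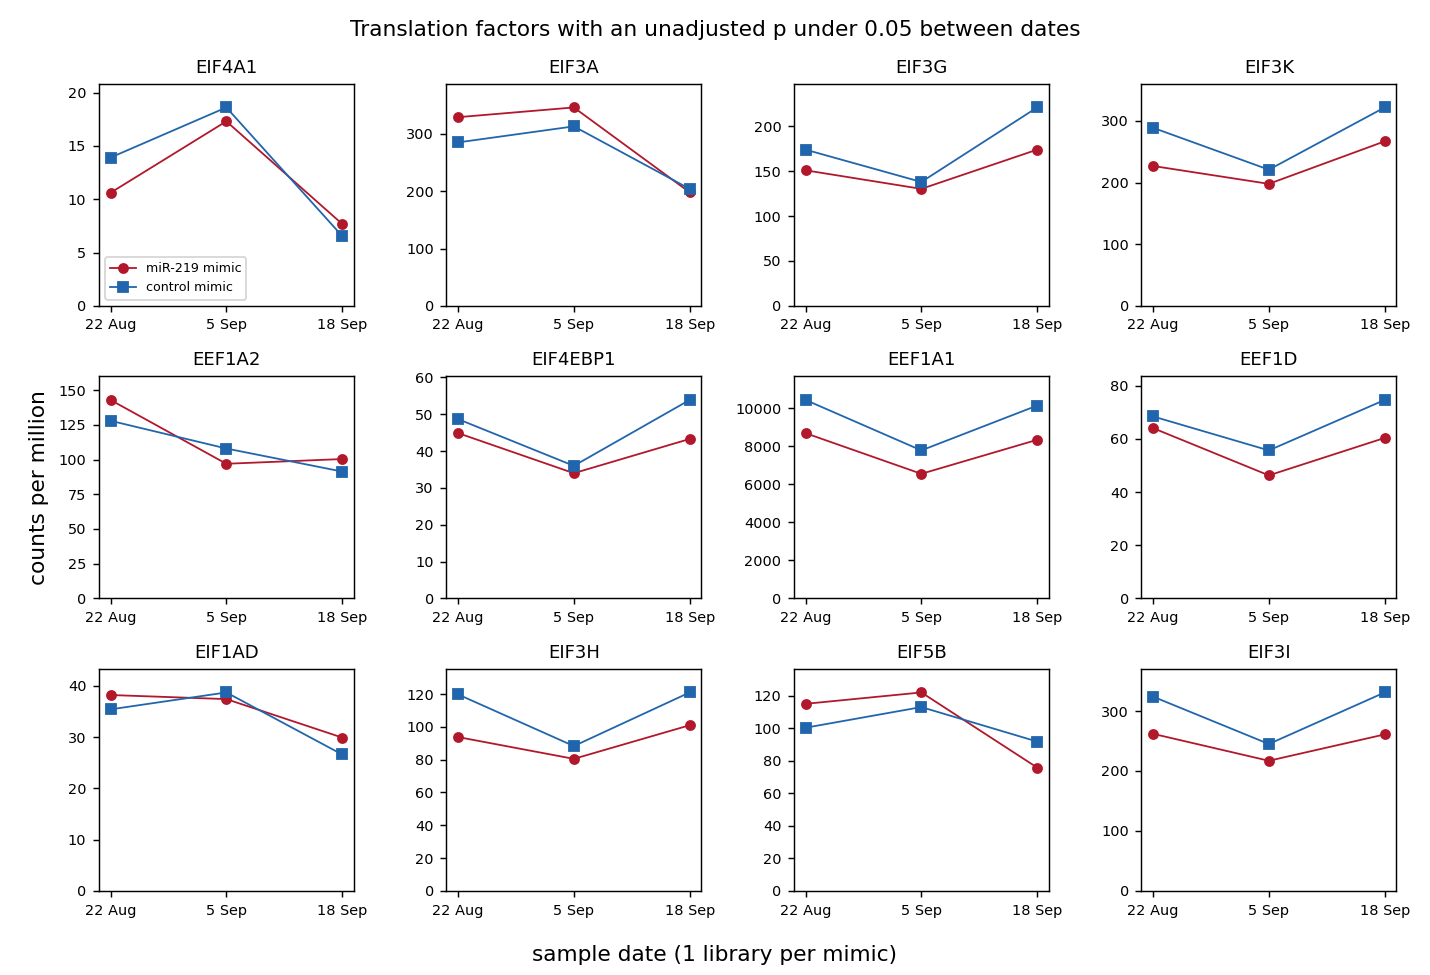
CPM of the 12 translation factors with an unadjusted p under 0.05 between dates, on 22 August, 5 September and 18 September, with M219 libraries as circles and NC libraries as squares; each axis starts at 0. EEF1A1, EEF1D, EIF4EBP1 and EIF3G, EIF3H, EIF3I and EIF3K dip on 5 September in both groups, and EIF3A, EIF4A1, EIF1AD and EIF5B are lowest on 18 September. The level of EIF4A1 is uncertain because other rows overlap it on its strand.

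Genes that work with these factors were set beside them in 5 lists, and edgeR called none of their members. The lists were chosen with earlier results of these data known, so their counts are a description only. All 7 mitochondrial and selenocysteine-specific factors had a log2 fold change below 0, the median being −0.24, and in 4 the groups did not overlap, with M219 below. Over all genes tested 49.7% had a log2 fold change below 0, and 3.84% had M219 and NC libraries that did not overlap in that direction. TSFM, the exchange factor for the mitochondrial tRNA carrier, had 17.1, 17.6 and 19.3 CPM with M219 and 25.2, 19.7 and 24.6 CPM with NC (log2 fold change −0.36, adjusted p = 0.999 in edgeR). TUFM, that carrier itself, had 265, 223 and 256 CPM with M219 and 337, 275 and 315 CPM with NC (log2 fold change −0.32, adjusted p = 0.999 in edgeR). In both genes every M219 library lay below every NC library.

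All 6 tested enzymes that modify eIF5A and eEF2 also lay below 0, against 49.7% of all genes, with a median of −0.18. They included DOHH, the hydroxylase that completes hypusine, at −0.18 and DPH3, of the diphthamide pathway, at −0.20. Of the 9 termination, recycling and reinitiation factors 6 were below 0, with a median of −0.10. Among them PELO, which rescues stalled ribosomes, had 59.4, 66.8 and 59.2 CPM with M219 and 82.3, 75.3 and 69.4 CPM with NC, without overlap (log2 fold change −0.29, adjusted p = 0.999 in edgeR), and MCTS1, a recycling partner, stood at −0.21. The 15 tested cap and poly(A) tail regulators had a median of −0.007 with 8 below 0, PABPC4 at −0.18 and RPS6KB2 at −0.19 having the lowest p. The 6 eIF2 kinases and phosphatase subunits had a median of 0.008 with 3 below 0, with PPP1R15A, a stress-induced phosphatase subunit, at −0.17 and EIF2AK2, the kinase that senses double-stranded RNA, at 0.17.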

How the data were processed

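The authors deposited raw counts per gene for 6 libraries. The submitters' processing notes name STAR 2.5, HTSeq 0.6.1, DESeq2 and the build hg19, with no roles given. The counting mode and strand setting are not given in the sources used here. All per-sample columns were matched to a sample by name, with 0 left over.

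Counts were fitted in R 4.3.3 with edgeR 4.0.16 (TMM, filterByExpr with min.count 10 and min.total.count 15, quasi-likelihood F test, no block), with Benjamini-Hochberg adjustment over all 16233 genes tested and a threshold of 0.05. CPM are counts scaled to the TMM-adjusted library size, log2 ratios by date used a prior count of 2, and standard errors were derived as the size of the log2 fold change divided by the square root of F. The scripts were tested on simulated data.

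The main test of M219 against NC did not pair libraries. Libraries of 1 date were treated as pairs, because the labels share the date, in the log2 ratios by date and in the fit with the date as a block. The deviations of paired libraries from their group means correlated at 0.0466, 0.154 and 0.513 in order of date. Alternatives used limma 3.58.1 and DESeq2 1.42.0. The removal of the length trend was added after the data were seen.

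The factors and gene lists were chosen with earlier results of these data known. Named factors were, in each complex, the highest level per length, the lowest p for the mimic and the lowest p between dates, plus those with an unadjusted p under 0.05 for the mimic. For pathway lists the 2 lowest p were named. Other named factors, such as EIF4G2, EIF2B5, EIF4A3 and EEF1D, were chosen after their values were seen. Symbols matched the reference for 57 of 59 rows. Python 3.11.15, pandas 2.3.3 and matplotlib 3.10.9 made tables and figures.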

Additional observations from a re-analysis of the deposited data

Results flagged for a closer look

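The median log2 ratio of M219 over NC had opposite signs on different dates in 6 complexes, and the differences between dates were not tested, since each date has 1 library per group. For eIF1 and eIF1A it was −0.63 on 22 August, 0.17 on 5 September and −0.083 on 18 September. The eIF2 genes and partners had −0.39 on 22 August, 0.004 on 5 September and −0.17 on 18 September. The 5 eIF2B genes had −0.29 on 22 August, 0.052 on 5 September and −0.16 on 18 September. For eIF5, eIF5B and eIF6 it was −0.2, 0.023 and −0.23 on the same dates. In these 4 complexes the middle date was the one above 0. EEF2 and its kinase had 0.17, −0.34 and −0.24, and the 2 tested eIF4E-binding inhibitors had 0.007, −0.048 and −0.21, so that 22 August was above 0 in both. The medians of 0.004 for the eIF2 genes and 0.007 for the inhibitors lay near 0, so nothing is read from their sign. Groups of 3 libraries were not searched for single libraries that stand apart.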

How the results depend on the processing

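The number of factors called between M219 and NC stayed at 0 in all 16 alternatives. Over all genes, edgeR called 6 higher and 14 lower with no filter on low counts, and DESeq2 called 2 higher and 3 lower. With the date as a replicate block it remained 0 of each, with 6 factors and 933 genes at an unadjusted p under 0.05 in edgeR; the block changed no call. The median log2 fold change of the factors stayed below 0, between −0.20 and −0.063, and between −0.18 and −0.11 when a library was left out. For the dates, factors called numbered 3 with no filter and 2 with DESeq2, and 0 to 22 when a library was left out; all genes called numbered 576 with no filter and 164 with DESeq2, and 55 to 4239 when a library was left out. Over these fits the smallest adjusted p of a factor between dates ran from 8.1e-06 to 0.558.

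The sign was checked for 42 of the 54 tested factors. Of these 42, 31 kept their sign in all 16 alternatives and 11 did not. No reversed value passed the threshold, and the cause was not tested. EEF1E1, EIF1AX, EIF2B3, EIF2B4, EIF3B, EIF3C, EIF3CL, EIF3J, EIF3M, EIF4E3, EIF4EBP2 and EIF5A2 were not in that check. Among them the date block moved EEF1E1 from 0.006 to −0.042 and EIF3CL from −0.067 to 0.034. When a library was left out, values ran from −0.28 to 0.009 for the eIF1 and eIF1A median, from −0.14 to 0.072 for that of eIF4F and helpers, from −0.14 to 0.18 for EEF1A2, from −0.25 to 0.032 for EEF2, from −0.32 to 0.009 for EIF1B, from −0.21 to 0.018 for EIF2D and from −0.04 to 0.33 for EIF3A. They ran from −0.51 to 0.22 for EIF4A1, from −0.087 to 0.23 for EIF5B, from −0.075 to 0.18 for EIF1AD, from −0.16 to 0.18 for EIF4G1 and from −0.21 to 0.027 for EIF4E. Without both libraries of 22 August the eIF1 and eIF1A median was 0.064, EIF1B 0.064, EEF1A2 −0.017, EIF5 0.009, EIF5B −0.043, EIF4G1 −0.2 and EIF4E 0.052. Without both of 5 September EEF2 was 0.076 and EIF5B −0.011, and with the length trend removed EIF5B was −0.014 and EIF4G1 −0.05. For 41 of 54 factors the 95% interval in edgeR lay within a 1.5-fold change in either direction.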
